A study of Mus musculus with 6 samples.

Results

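The 7 genes described here code for sensors of RNA and for enzymes that act on double-stranded RNA, and were picked out by symbol: Ifih1, Ddx58, Dhx58, Mavs, Eif2ak2, Adar and Tlr3. All 7 were found among the 13706 genes of the expression matrix, each in 1 row, and all 7 were among the 13648 genes tested. The series holds 6 libraries of primary dermal fibroblast cultures of mouse, 2 per group. The KO + H-151 group carried R26-CAG-CreER together with Yap1 fl/fl and Wwtr1 fl/fl, and received 1 μM 4-hydroxytamoxifen with 1 μM H-151, a small-molecule inhibitor of the adaptor STING, for 72 hr. The KO group had the same alleles and received 1 μM 4-hydroxytamoxifen alone for 72 hr. The control group had the floxed Yap1 and Wwtr1 alleles, listed no Cre, and received 1 μM 4-hydroxytamoxifen for 72 hr. CreER is a recombinase that 4-hydroxytamoxifen activates, and here the CAG promoter at the Rosa26 locus, which is active in nearly all cell types, drives it. Loss of YAP and TAZ (the product of Wwtr1) and the presence of the recombinase cannot be told apart between KO and control, because the controls carried no Cre. No control library received H-151, so that what the inhibitor does without the knockout is not known from this series. KO + H-151 and control differ in recombinase, deletion and inhibitor together. The comparisons address how the transcripts of these genes stood after deletion of Yap1 and Wwtr1, and how they stood when STING was inhibited at the same time.

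MDA5 (Ifih1), RIG-I (Ddx58) and LGP2 (Dhx58) are the RIG-I-like receptors, RNA helicases of the cytosol that bind double-stranded RNA. RIG-I and MDA5 carry caspase recruitment domains that engage MAVS, an adaptor on the outer mitochondrial membrane, and MAVS then activates the kinases that phosphorylate IRF3 and IRF7 and induce type I interferon. LGP2 lacks those domains and modulates the other receptors. TLR3 reads double-stranded RNA in endosomes and signals through TRIF. PKR (Eif2ak2) halts translation by phosphorylating eIF2α when it binds double-stranded RNA, and ADAR1 (Adar) converts adenosine to inosine in such RNA. Most of these genes are known interferon-stimulated genes, and Mavs is known as a gene transcribed without such a stimulus. cGAS and STING, by contrast, form the cytosolic DNA-sensing route to the same interferon response.

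The promoters are shown first, so that the start regions of the genes can be read side by side. No promoter sequence was at hand for Dhx58, and the part of these sequences in the changes was not tested. RefSeq promoter windows of the GRCm38.p6 assembly, which run from 250 bases before to 50 bases after an annotated start, matched 6 of the 7 genes and gave 8 windows, of which 3 belong to Adar. Capitals mark every match, on either strand, to the core of the interferon-stimulated response element (ISRE core, GAAANNGAAA). They also mark matches to a shorter interferon regulatory factor core (IRF core, AANNGAAA), which lies within the ISRE core. The ISRE core is bound by the transcription factor complex that type I interferon activates, and the IRF core by interferon regulatory factors. The IRF core was added after the sequences had been seen. Each sequence is written 5′ to 3′ on the strand of its gene.
Ifih1, chr2:62646206-62646505, minus strand: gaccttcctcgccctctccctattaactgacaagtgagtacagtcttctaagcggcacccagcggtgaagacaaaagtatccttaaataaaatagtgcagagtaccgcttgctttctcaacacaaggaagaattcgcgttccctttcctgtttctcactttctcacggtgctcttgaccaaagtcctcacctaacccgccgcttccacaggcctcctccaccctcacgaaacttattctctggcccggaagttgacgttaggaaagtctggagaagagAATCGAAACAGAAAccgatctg
Ddx58, chr4:40239776-40240075, minus strand: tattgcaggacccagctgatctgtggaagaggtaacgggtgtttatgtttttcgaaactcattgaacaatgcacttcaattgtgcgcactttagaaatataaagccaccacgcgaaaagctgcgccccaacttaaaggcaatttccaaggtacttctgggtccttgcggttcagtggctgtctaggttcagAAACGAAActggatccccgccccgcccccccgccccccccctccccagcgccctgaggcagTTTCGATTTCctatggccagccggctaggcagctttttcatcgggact
Mavs, chr2:131233813-131234112, plus strand: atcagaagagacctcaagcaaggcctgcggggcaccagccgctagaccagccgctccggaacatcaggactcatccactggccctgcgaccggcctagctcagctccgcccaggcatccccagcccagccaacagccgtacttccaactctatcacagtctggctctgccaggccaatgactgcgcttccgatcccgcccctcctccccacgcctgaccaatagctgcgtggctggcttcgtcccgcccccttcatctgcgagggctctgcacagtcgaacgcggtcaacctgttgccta
Eif2ak2, chr17:78882523-78882822, minus strand: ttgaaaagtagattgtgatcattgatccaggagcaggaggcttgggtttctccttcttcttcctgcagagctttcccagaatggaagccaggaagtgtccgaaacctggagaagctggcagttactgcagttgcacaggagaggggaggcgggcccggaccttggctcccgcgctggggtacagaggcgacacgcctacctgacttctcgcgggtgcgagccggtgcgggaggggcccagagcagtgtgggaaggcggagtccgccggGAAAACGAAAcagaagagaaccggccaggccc
Adar, window 3, chr3:89730468-89730767, plus strand: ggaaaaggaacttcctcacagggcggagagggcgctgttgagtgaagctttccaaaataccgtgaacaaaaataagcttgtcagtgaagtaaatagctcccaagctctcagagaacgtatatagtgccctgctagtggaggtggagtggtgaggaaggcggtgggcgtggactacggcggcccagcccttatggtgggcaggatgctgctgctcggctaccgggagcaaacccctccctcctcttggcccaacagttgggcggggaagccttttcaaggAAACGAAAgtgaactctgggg
Tlr3, chr8:45410331-45410630, minus strand: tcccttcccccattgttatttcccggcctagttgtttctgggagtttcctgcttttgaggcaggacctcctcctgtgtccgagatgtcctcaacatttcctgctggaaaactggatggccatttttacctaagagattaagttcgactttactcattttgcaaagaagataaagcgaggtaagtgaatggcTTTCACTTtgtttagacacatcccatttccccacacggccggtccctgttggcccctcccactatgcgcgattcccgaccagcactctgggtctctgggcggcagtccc

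The ISRE core occurred in the windows of 3 genes, all within the first 50 bases of the annotated transcript: at bases 33 to 42 of Ifih1, at bases 3 to 12 of Ddx58 on the reverse strand, and at bases 19 to 28 of Eif2ak2. Of all 32851 windows in the table, 3.44% held it. The IRF core lies within the ISRE core, so that the windows of Ifih1, Ddx58 and Eif2ak2 had to hold it. It was also found in the window of Tlr3 and in window 3 of Adar. Of all windows 23.9% held it, a share that is no test here, as the motif was added after the sequences had been seen. The gamma-activated site TTCNNNGAA, a motif of interferon-γ responses, was found in Eif2ak2 and in window 3 of Adar, where it overlaps the IRF core by 2 bases, and in 8.3% of all windows. The TEAD motif GGAATG, read by the DNA-binding partners of YAP and TAZ, was found in 0 of the 8 windows and in 14.7% of all windows. The windows of Mavs and the first 2 windows of Adar held none of the 4 motifs. A match is a run of letters, not a measured binding site, and a window without one says only that these letters are not in it.

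**Figure D1:**
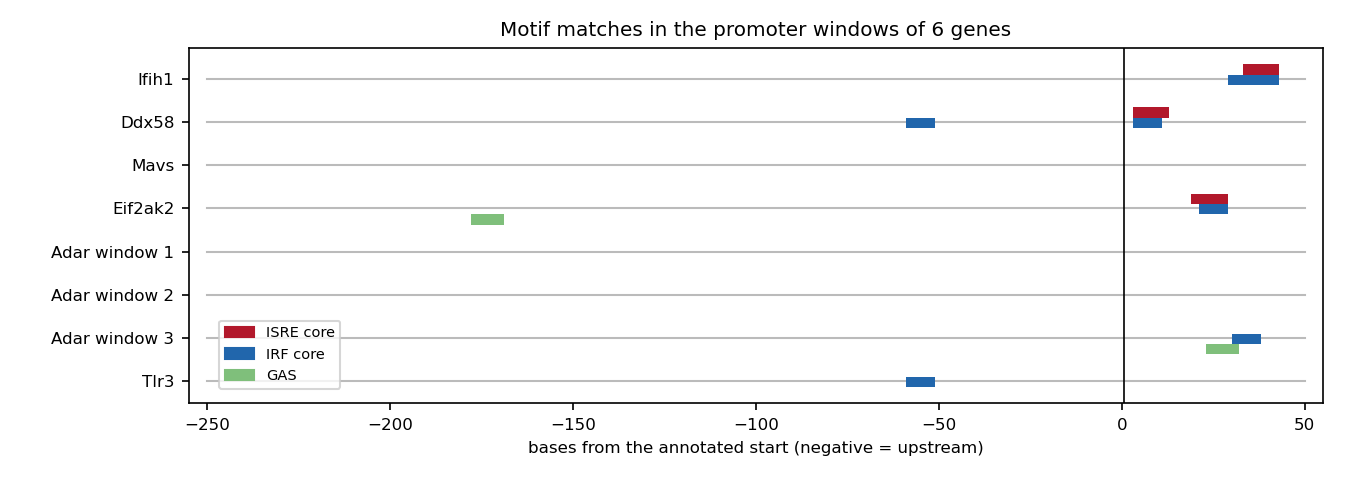
Positions of motif matches in the 8 RefSeq promoter windows of 6 genes, in bases from the annotated start (vertical line), with the ISRE core in red, the IRF core in blue and the gamma-activated site in green. The 3 ISRE matches lie just downstream of the starts of Ifih1, Ddx58 and Eif2ak2, and the Mavs window is empty.

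Expression was measured with a 3′-end kit (QuantSeq), in which each transcript gives reads from its end whatever its length, so that levels can be set side by side between genes. Values are the authors' CPM, which are reads divided by a scaled library size, and are called scaled CPM here. Between 12444986 and 15308100 reads fell in the listed genes per library, and 1 read was worth 0.0625 to 0.0871 scaled CPM. The labels leave unsaid whether both libraries of each group had cultures of their own, so that p-values measure the spread between these libraries, which may be technical. Log2 changes are differences of log2(scaled CPM + 1) from limma over all 6 libraries, given with their standard errors, and adjusted p is Benjamini-Hochberg over all 13648 genes with a threshold of 0.05. Of the targeted genes, Wwtr1 averaged 3.54 ± 0.658 scaled CPM in KO + H-151, 4.91 ± 0.167 in KO and 216 ± 3.69 in control (SD, n = 2 each). Yap1 averaged 43.9 ± 2.08, 67.4 ± 1.32 and 125 ± 4.14 scaled CPM in the same order, and whether the tagged transcript ends lie within the deleted part of either gene is not given in the sources used here. All 10 fibroblast markers listed were present, and summed to 25790 and 23860 scaled CPM in KO + H-151, 36870 and 38750 in KO, and 32200 and 32730 in control. In KO against control, 3 of them were called higher (Col1a1, Col1a2 and Lum) and Pdgfra lower, beside 18.2% and 14.2% of all genes tested. In KO + H-151 against KO 5 were called higher and 4 lower, the collagens among the lower, beside 19.4% and 21.4% of all genes. All 11 macrophage markers listed were present too, and their sum was 3578 and 2901 scaled CPM in KO + H-151, 1385 and 1386 in KO, and 1323 and 1125 in control. Melanocyte and Schwann cell markers, 6 of 8 with values, summed to 78.8 and 67.3 scaled CPM in KO + H-151, 163 and 178 in KO, and 78.1 and 71.6 in control. Pericyte markers, 3 of 5 with values, summed to 59.8 and 71.2, 114 and 112, and 77.6 and 89.8 scaled CPM in the same order of groups. Endothelial markers, 6 of 6 with values, summed to 21.4 and 18.5 scaled CPM in KO + H-151, 13.2 and 12.01 in KO, and 19.5 and 17.9 in control. Of these 6, 4 were called lower in KO than in control and Kdr higher, beside 14.2% and 18.2% of all genes. Values were given for 1 of 5 T cell markers (Trac) and 1 of 7 keratinocyte markers (Krt10). The part of these cell types in the results for the 7 genes was not tested. In bulk libraries fewer cells of a type and less RNA per cell cannot be told apart.

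In KO, 6 of the 7 genes were higher than in control, by between 4.30 and 48.0 times in the ratio of means, and the same 6 were lower in KO + H-151 than in KO. Ifih1 had the largest of these changes among the 7 in both comparisons, followed in KO against control by Tlr3, Dhx58, Ddx58, Eif2ak2 and Adar. Mavs, the adaptor, was the member that did not pass the test in KO against control. In KO + H-151, 5 of the genes were also below control, by much smaller amounts. In limma, 6 genes were called higher and 0 lower in KO against control, where 18.2% of all genes tested were called higher and 14.2% lower. In KO + H-151 against KO, 6 were called lower and 1 higher, where 21.4% of all genes were called lower and 19.4% higher. In KO + H-151 against control, 5 were called lower and 0 higher, where 11.4% of all genes were called lower and 11.5% higher. The median log2 change of the 7 genes was 2.77, -3.57 and -0.42 in these comparisons, taken in this order, against -0.0087, 0.015 and 0.00048 over all genes. The genes were picked by what they do, and these counts describe the list only.

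**Figure D2:**
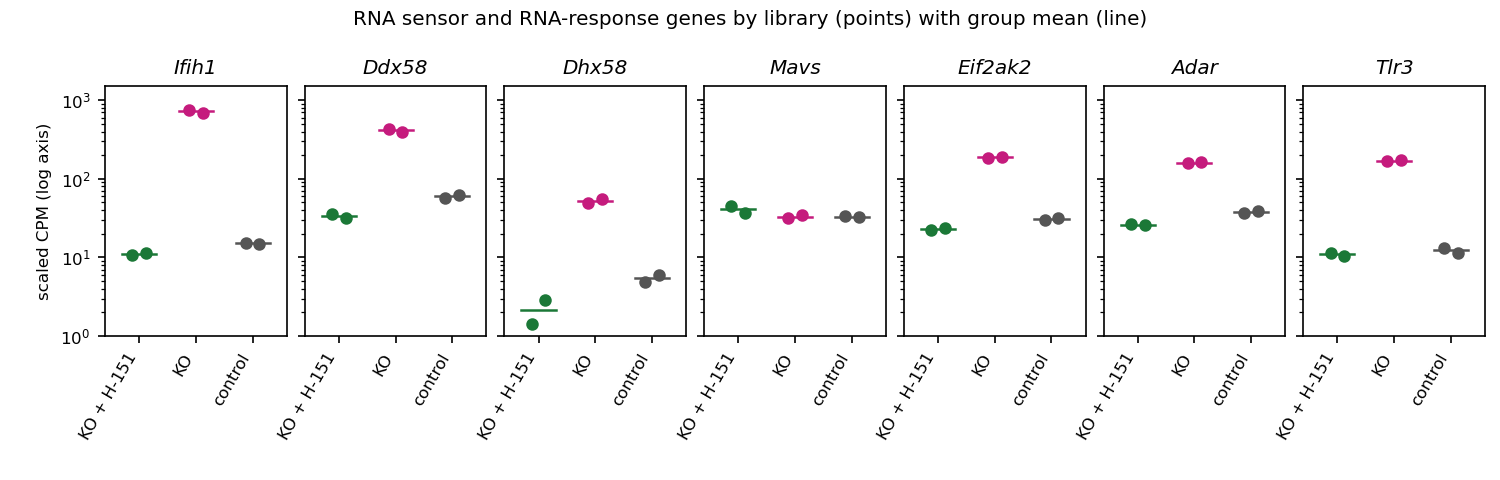
Level of each of the 7 genes in the 6 libraries, in scaled CPM on a log10 axis, with 1 point per library and groups in the order KO + H-151, KO, control. Both KO libraries lie above all others for 6 genes, and for Mavs the KO and control libraries overlap near 33 scaled CPM.

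Ifih1 (ENSMUSG00000026896, chr2:62595798-62646255 on the minus strand of GRCm38), the gene of the sensor of long double-stranded RNA, had 10.8 and 11.3 scaled CPM in KO + H-151, 754 and 698 in KO, and 15.3 and 14.9 in control. The KO libraries were far above the rest, with 8657 and 8191 reads in KO against 215 and 207 reads in control. The log2 change was 5.49 ± 0.08 in KO against control (limma adjusted p = 6.79e-17), a ratio of means of 48.0. With H-151 it was -5.92 ± 0.08 relative to KO (adjusted p = 9.87e-18). KO + H-151 also lay below control without overlap, with a log2 change of -0.42 ± 0.08 (adjusted p = 0.00149), so that all 3 groups were set apart in the order KO, control, KO + H-151. By size of log2 change, Ifih1 was 24th among genes that were higher in KO than in control and 29th among those lower in KO + H-151 than in KO.

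Ddx58 (ENSMUSG00000040296, chr4:40203773-40239828 on the minus strand), the gene of RIG-I, which senses RNA with 5′-triphosphate ends, had 35.7 and 31.9 scaled CPM in KO + H-151, 426 and 399.8 in KO, and 56.8 and 62.8 in control. No libraries overlapped between groups, and in both groups other than KO this was the most abundant of the 3 receptor transcripts. Its log2 change was 2.77 ± 0.08 in KO against control (limma adjusted p = 9.24e-14). Relative to KO it was -3.57 ± 0.08 in KO + H-151 (adjusted p = 3.07e-15). Against control it was -0.81 ± 0.08 in KO + H-151 (adjusted p = 2.40e-06).

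Dhx58 (ENSMUSG00000017830, chr11:100694884-100704271 on the minus strand), the gene of the regulatory receptor LGP2, had 1.44 and 2.88 scaled CPM in KO + H-151, 49.4 and 55.9 in KO, and 4.91 and 6.05 in control. It was the least abundant of the 7 genes in the KO + H-151 and control libraries, and in KO it was above Mavs. The KO + H-151 values rest on 22 and 46 reads. The groups did not overlap. The log2 change was 3.05 ± 0.20 in KO against control (limma adjusted p = 2.71e-09) and -4.12 ± 0.20 for KO + H-151 relative to KO (adjusted p = 4.81e-11). KO + H-151 was lower than control by -1.07 ± 0.20 on the log2 scale (adjusted p = 0.000807). An antisense gene, Dhx58os, overlaps the last kilobase of Dhx58, and the strand setting of the counting is not given in the sources used here. Dhx58os itself was listed at 4.97 and 4.50 scaled CPM in KO + H-151, 3.66 and 1.96 in KO, and 2.78 and 2.52 in control, so that it did not follow Dhx58.

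The 3 receptors did not change in proportion, and the mix of their transcripts was different in KO. Together they summed to 47.953 and 46.022 scaled CPM in KO + H-151, 1229 and 1153 in KO, and 77.0 and 83.8 in control. Ifih1 made up 22.5% (95% Wilson interval 19.6 to 25.6%) and 24.5% (21.5 to 27.7%) of the reads of the 3 genes in the KO + H-151 libraries. In the KO libraries its share was 61.3% and 60.5%, with intervals that together spanned 59.7 to 62.1%. In the control libraries it was 19.9% (17.6 to 22.4%) and 17.8% (15.7 to 20.1%). Ddx58 made up 74.5% and 69.3% of the reads in KO + H-151, 34.6% and 34.7% in KO, and 73.8% and 75.0% in control. Dhx58 stayed between 2.997% and 7.22% in all 6 libraries. The intervals cover counting error only.

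The level of Ifih1 relative to Ddx58 was 0.302 and 0.353 in KO + H-151, 1.77 and 1.74 in KO, and 0.269 and 0.237 in control. The geometric mean of this ratio was 6.95 times higher in KO than in control, and the groups did not overlap. An exact two-sided permutation test gave p = 0.333, the smallest value that 2 libraries against 2 allow. The ratio moved less between KO + H-151 and control, 1.29 times higher in KO + H-151, where the libraries again did not overlap and p was again 0.333. This test cannot reach 0.05 with 2 libraries a group.

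**Figure D3:**
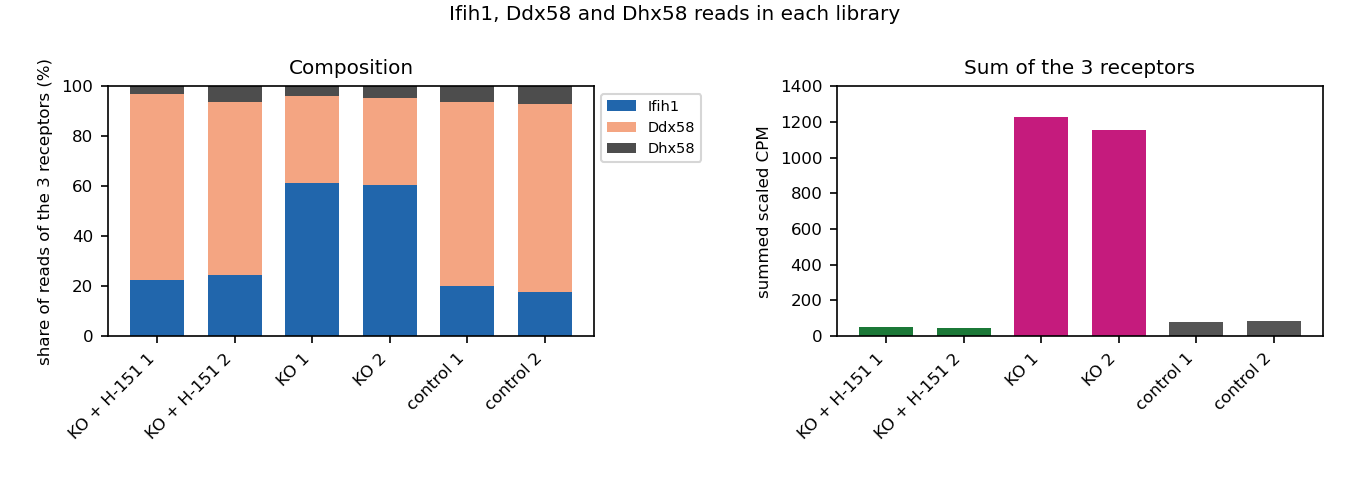
Share of Ifih1, Ddx58 and Dhx58 in the reads of the 3 RIG-I-like receptor genes in each library, in percent, with groups in the order KO + H-151, KO, control. Ifih1 holds 60.5% or more of the reads in both KO libraries and 24.5% or less in the other 4.

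Mavs (ENSMUSG00000037523, chr2:131234063-131248025 on the plus strand) had 45.3 and 36.6 scaled CPM in KO + H-151, 31.9 and 34.2 in KO, and 33.3 and 32.6 in control. The KO libraries lay on either side of the control libraries, and both KO + H-151 libraries were above the rest. The log2 change in KO against control was 0.0017 ± 0.11 (limma adjusted p = 0.992), with a 95% interval of -0.22 to 0.23, or 0.856 to 1.17 times. Its sign depended on the scaling, being negative after median, quantile and total-count scaling. KO + H-151 against KO gave 0.30 ± 0.11 (adjusted p = 0.0356), a call that was lost without KO + H-151 replicate 1 (adjusted p = 0.340), without KO replicate 1 (0.210) or without KO replicate 2 (0.0866). KO + H-151 against control gave 0.30 ± 0.11 (adjusted p = 0.0554), which did not pass, and which passed without KO + H-151 replicate 2 (log2 change 0.45, adjusted p = 0.00537). The summed level of the 3 receptors relative to Mavs was 1.06 and 1.26 in KO + H-151, 38.6 and 33.8 in KO, and 2.32 and 2.57 in control.

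Tlr3 (ENSMUSG00000031639, chr8:45395665-45411080 on the minus strand), the endosomal receptor, had 11.4 and 10.4 scaled CPM in KO + H-151, 167 and 175 in KO, and 13.3 and 11.2 in control. KO stood apart, while a KO + H-151 library lay between the 2 control libraries. KO exceeded control by a log2 change of 3.70 ± 0.11 (limma adjusted p = 9.16e-14), a ratio of means of 13.9, and the change was -3.85 ± 0.11 for KO + H-151 relative to KO (adjusted p = 3.93e-14). KO + H-151 and control did not differ beyond their spread, at -0.15 ± 0.11 (adjusted p = 0.352), with a 95% interval of -0.38 to 0.07. The end of the Tlr3 transcript shares sequence with the gene model Gm10619, so that some reads may have been split between them.

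Eif2ak2 (ENSMUSG00000024079, chr17:78852564-78882573 on the minus strand), the gene of the kinase PKR, had 22.6 and 23.4 scaled CPM in KO + H-151, 186 and 191 in KO, and 29.6 and 31.7 in control. The replicates lay close together and no groups overlapped. Log2 changes were 2.58 ± 0.08 in KO against control (limma adjusted p = 2.98e-13), -2.98 ± 0.08 for KO + H-151 relative to KO (adjusted p = 3.80e-14) and -0.40 ± 0.08 in KO + H-151 against control (adjusted p = 0.00224).

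Adar (ENSMUSG00000027951, chr3:89715022-89753446 on the plus strand), the gene of the RNA-editing enzyme ADAR1, had 26.6 and 25.8 scaled CPM in KO + H-151, 158 and 164 in KO, and 36.2 and 38.5 in control. It had the smallest change among the 6 genes that rose in KO. Its log2 change was 2.08 ± 0.08 in KO against control (limma adjusted p = 3.81e-12), -2.57 ± 0.08 for KO + H-151 relative to KO (adjusted p = 2.05e-13) and -0.50 ± 0.08 in KO + H-151 against control (adjusted p = 0.000302). ADAR1 is made in an interferon-inducible long form and a constitutive short form from different promoters, and tags at transcript ends do not tell these forms apart. Chrnb2 overlaps the last kilobase of Adar on the other strand. Relative to Eif2ak2, the level of Adar was 1.18 and 1.10 in KO + H-151, 0.851 and 0.858 in KO, and 1.22 and 1.21 in control, so that the editor of double-stranded RNA was below the kinase in KO and above it in the other groups. Each difference between groups in this ratio was without overlap, with the smallest possible exact permutation p of 0.333.

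**Figure D4:**
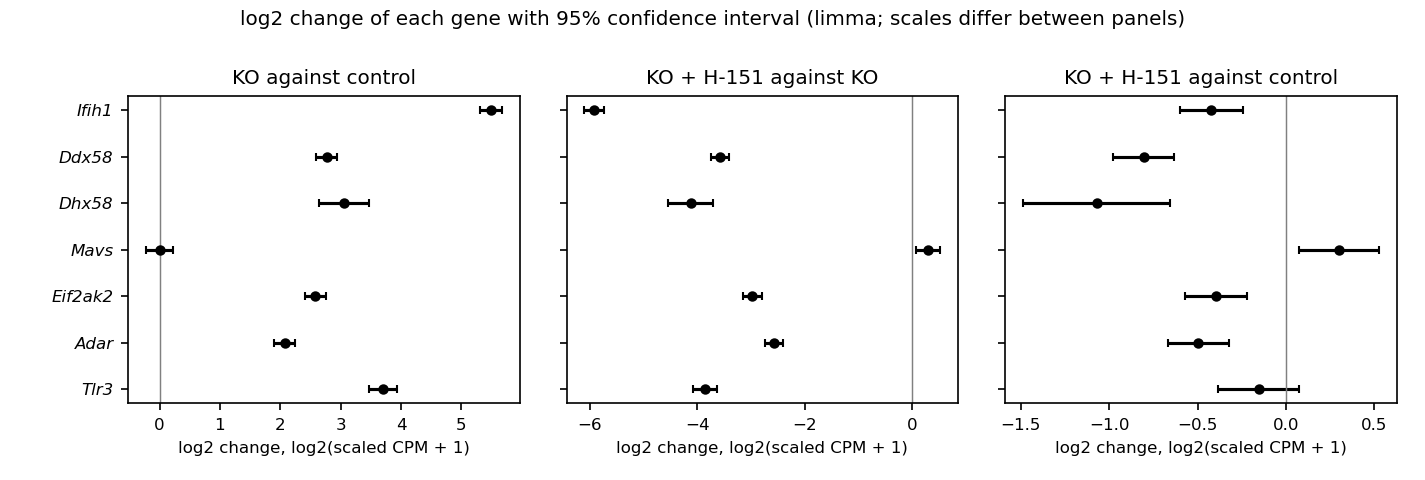
Log2 change of each of the 7 genes, log2(scaled CPM + 1), in the 3 comparisons, with 95% intervals from limma. In KO against control 6 genes lie between 2.08 and 5.49 and Mavs at 0.0017, and in KO + H-151 against control all but Mavs lie at or below -0.15.

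The changes that accompanied H-151 had the opposite sign to those of the knockout for all 6 genes that rose in KO. They were larger in size for 5 of them, which is the lower level in KO + H-151 than in control given above, and for Tlr3 the sizes did not differ beyond the spread. Compared with KO, the levels in KO + H-151 were lower by 65.9 times for Ifih1, 24.4 times for Dhx58, 15.7 times for Tlr3, 12.2 times for Ddx58, 8.17 times for Eif2ak2 and 6.14 times for Adar, in ratios of means. The KO libraries enter both comparisons, so that these are values side by side and not independent evidence of a reversal. Among the genes of the DNA-sensing route, Sting1 averaged 36.0 scaled CPM in KO + H-151, 72.2 in KO and 35.9 in control, and Cgas 10.3, 45.6 and 9.99 scaled CPM in the same order. Both rose in KO and fell with H-151 (limma log2 changes of 0.99 and -0.98 for Sting1, and 2.09 and -2.05 for Cgas). Ifnb1, the interferon-β gene, had 0 reads in KO + H-151, 65 in KO and 0 in control, at least 26.04-fold higher in KO than in control when the 2 control libraries are given the 3 reads that a count of 0 allows. Of the 11 macrophage markers, 10 were called higher and Fcgr1 lower in KO + H-151 than in KO, beside 19.4% and 21.4% of all genes. Against control, 10 of 11 were called higher in KO + H-151, beside 11.5% of all genes. The part of these cells in the H-151 results was not tested.

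The scaling of the libraries moved the balance of calls over all genes. Of the genes called in KO against control, 56.2% were higher with the deposited scaling, 45.9% after median scaling, 39.0% after quantile normalization and 29.9% after scaling to the total count, where the median over all genes became -0.16 on the log2 scale. In KO + H-151 against KO the share was 47.5% as deposited, 61.9% after quantile normalization and 71.2% with the total count, at a median of 0.18. The 6 genes that rose in KO kept their direction and call in each of these settings, with log2 changes in KO against control between 1.91 (Adar) and 5.59 (Ifih1) over all 19 alternatives run.

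For each member, the genes with the nearest pattern over the 6 libraries were ranked by the root mean square difference of centred log2(scaled CPM + 1) among 10175 candidates. Ifih1 was nearest to Gbp2b, a guanylate-binding protein (0.0889), Ddx60 (0.129) and Slfn8 (0.186). Ddx58 was nearest to Ifi211 (0.101), Ifi204 (0.141) and Samd9l (0.146), and Dhx58 to Apol9b (0.230), Apol9a (0.242) and Ifi211 (0.274). The genes nearest to Eif2ak2 were Ifi35 (0.0425), Pcgf5 (0.100) and Samhd1 (0.110). For Adar they were Tfap2a (0.0479), Nmi (0.0704) and Pnp (0.0909), and for Tlr3 Tnfaip3 (0.138) and Daxx (0.143) are given. Mavs, which varied little, was nearest to Xylt2 (0.0316), Slc18b1 (0.0436) and Idua (0.0437). The 6 libraries share their groups, so that these distances compare 3 group levels and the spread of 2 libraries about each.

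The other genes of the pathway were taken as 7 lists of 103 genes, 97 of which were in the table and tested. Of the 10 genes for oligoadenylate synthetases, which make a second messenger when they bind double-stranded RNA, and for their partners, 8 were called higher and 0 lower in KO, with a median log2 change of 2.27. Oas1a, Oas1g, Oas2, Oas3 and Oasl1 were below 1 scaled CPM in every KO + H-151 and control library and entered the test through KO alone, so that they could come out higher only, and that count and median rest largely on them. Of the other 5 genes, 3 rose (Oas1b, Oas1c and Oasl2) and 0 fell. In the other 6 lists, the medians lay between -0.03 and 0.27, with 25 of 87 genes called higher and 9 called lower. Rnaset2b, among those called higher, also entered the test through KO alone. Over all genes the median was -0.0087, with 18.2% called higher and 14.2% called lower. The scaling moved the smaller changes of these lists: after quantile or total-count scaling 6 of 15 genes of the eIF2 list and 4 of 14 inhibitor genes were called lower in KO, against 3 and 1 as deposited. Of all 13648 genes, 2989 were called lower in KO after quantile and 4054 after total-count scaling, against 1938 as deposited. With total-count scaling, 4 of 18 genes downstream of MAVS and TRIF, 5 of 15 of the eIF2 list and 4 of 8 endosomal genes were called higher in KO + H-151 than in KO, against 2 in each list as deposited. Of all 13648 genes, 4770 were called higher there with total-count scaling, against 2643 as deposited.

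**Figure D5:**
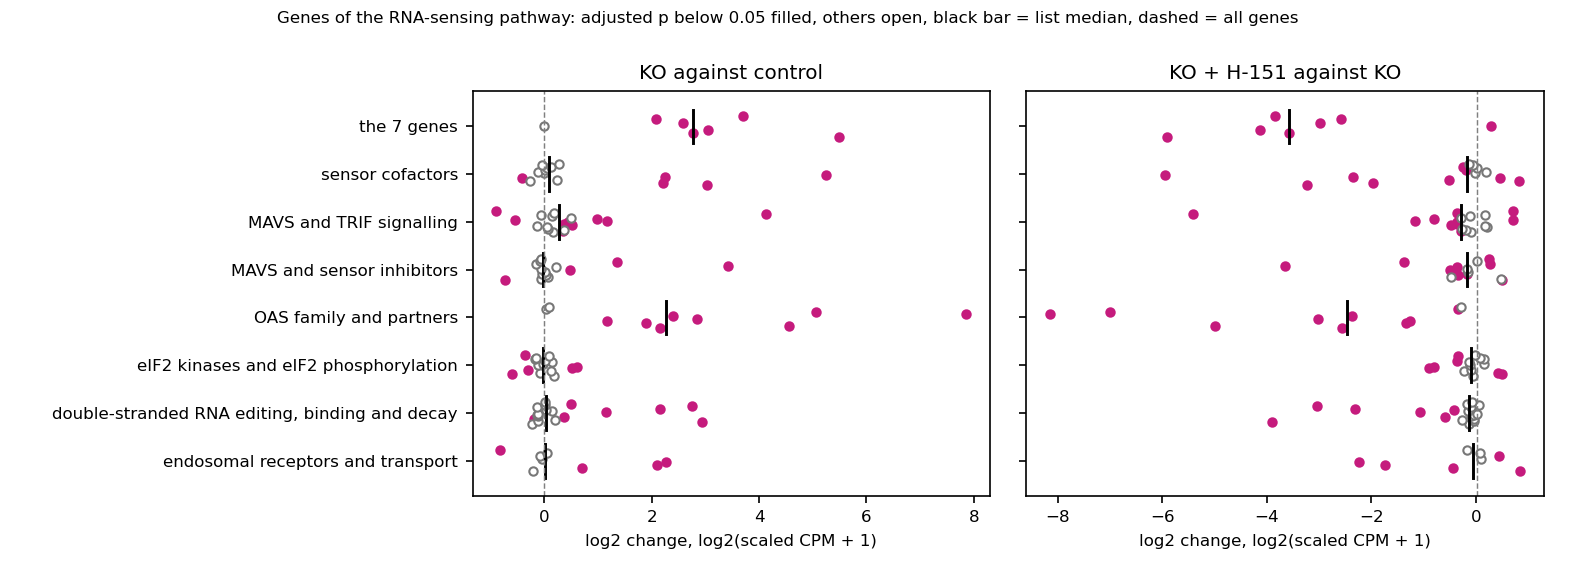
Log2 change, log2(scaled CPM + 1), of each gene in the 7 pathway lists and of the 7 members in KO against control (left) and KO + H-151 against KO (right), with called genes filled, list medians as black bars and the median of all genes dashed. The list of the OAS family and partners has a median of 2.27 on the left and -2.47 on the right. It holds 5 genes that entered the test through KO alone. The other 6 lists centre near 0 with a few far-off genes, and Rnaset2b of the endosomal list also entered through KO alone.

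Among the cofactors of the sensors, 4 of 14 rose and 1 fell in KO, beside 18.2% and 14.2% of all genes. Trim25, the ubiquitin ligase of RIG-I, averaged 40.6 ± 3.38 scaled CPM in KO + H-151, 391 ± 8.50 in KO and 47.0 ± 1.51 in control, with a log2 change of 3.03 ± 0.08 in KO against control (limma adjusted p = 1.79e-14). Ddx60, a helicase linked to RIG-I-like receptor signalling, averaged 1.63 in KO + H-151, 162 in KO and 3.29 in control, a rise of 5.25 ± 0.14 in KO on the log2 scale. Zc3hav1, the zinc-finger antiviral protein, rose by 2.25 ± 0.07, and Rnf135, another RIG-I ubiquitin ligase, by 2.21 ± 0.12. Zcchc3 was the gene called lower (-0.41 ± 0.12, adjusted p = 0.0194), a call lost without KO replicate 1 (0.159) or control replicate 2 (0.196). Ywhae, the 14-3-3ε chaperone of RIG-I and the most abundant of the list, stood at 680 in KO + H-151, 773 in KO and 761 in control and was not called in KO (adjusted p = 0.847), though it was called lower after quantile normalization (log2 change -0.23, adjusted p = 0.0144). With H-151, 7 of the 14 fell relative to KO and 2 rose (Trim65 and Zcchc3), beside 21.4% and 19.4% of all genes. The call of Trim65 was lost without KO replicate 2 and that of Zcchc3 without KO replicate 1. Among the genes that fell, the calls of Ywhae and Ppp1ca were lost when certain libraries were left out.

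Downstream of MAVS and TRIF, 7 of 18 genes rose and 2 fell in KO, beside 18.2% and 14.2% of all genes. Of those that rose, the calls of Traf3 and Casp8 were lost when certain libraries were left out. In those fits the log2 change was 0.23 to 0.363 for Traf3 and 0.207 to 0.405 for Casp8. Irf7, the interferon-inducible transcription factor that amplifies the response, averaged 3.46 ± 0.378 scaled CPM in KO + H-151, 189 ± 5.26 in KO and 9.88 ± 0.626 in control (log2 change 4.13 ± 0.12 in KO against control, limma adjusted p = 7.10e-14). Irf3, its constitutive relative, was at 44.3 in KO + H-151, 39.0 in KO and 40.6 in control (adjusted p = 0.691 for KO against control), and is named here after its values were seen. The kinase gene Tbk1 rose by 0.98 ± 0.11, and Azi2, an adaptor of that kinase, by 1.17 ± 0.12. Tomm70a, a MAVS partner on mitochondria, did not pass (adjusted p = 0.0526). Ticam1, the gene of TRIF itself, averaged 12.5 in KO + H-151, 7.27 in KO and 14.4 in control. It fell by 0.90 ± 0.14 in KO, so that Tlr3 and its adaptor moved in opposite directions. The other lower gene, Tbkbp1, passed narrowly (adjusted p = 0.0474), and 1 gene of the list was called lower without KO replicate 1, KO replicate 2 or control replicate 1. Relative to KO, 8 fell in KO + H-151 and 2 rose (Ticam1 and Tbkbp1), beside 21.4% and 19.4% of all genes. The call of Tbkbp1 was lost without KO replicate 2, and those of Traf3, Casp8 and Tank, which fell, without certain libraries.

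Of 14 genes for inhibitors of MAVS and the sensors, 3 rose and 1 fell in KO, shares near or below the 18.2% and 14.2% of all genes. Tnfaip3, the deubiquitinase A20, rose by 3.43 ± 0.18 on the log2 scale (limma adjusted p = 1.50e-10). Marchf5, a mitochondrial ubiquitin ligase, rose by 1.36 ± 0.07, to 230.4 in KO, against 88.9 in control. Smurf1 rose by 0.48 ± 0.08. Nlrx1 was called lower (-0.72 ± 0.17, adjusted p = 0.00310), a call lost without KO replicate 1 (0.0755) or control replicate 2 (0.0677). Pcbp2, which promotes MAVS degradation and was the most abundant of the list, was at 320.4 in KO + H-151, 353 in KO and 351 in control (adjusted p = 0.942 for KO against control). Under H-151, 6 fell relative to KO and 3 rose, beside 21.4% and 19.4% of all genes. The calls of all 3 that rose were lost without KO + H-151 replicate 2 or without KO replicate 1. Among those that fell, the calls of Pcbp1, Cyld and Itch were lost when certain libraries were left out.

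Within the list of the OAS family and partners, Oasl1, a regulator of IRF7 translation in mouse, averaged 0.192 scaled CPM in KO + H-151, 339 in KO and 0.467 in control. Its log2 change was 7.86 ± 0.16 in KO against control. Oasl1 entered the test through KO alone and could come out higher only, so no p-value is given for it. Oasl2 averaged 2.35 in KO + H-151, 416 in KO and 11.5 in control, and Oas1b 1.35, 73.2 and 2.15 in the same order. Oas1 family members are near-identical copies, so that reads may be split between them. Relative to KO, the same 5 genes that entered the test through KO alone could come out lower only in KO + H-151. Of the other 5, Abce1, Oas1b, Oas1c and Oasl2 were called lower, Pde12 was not called and 0 were higher. Over all genes, 21.4% were called lower and 19.4% higher.

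PKR was the member of the eIF2 kinase family that rose. Of the 15 tested genes of the eIF2 list, 2 rose and 3 fell in KO, near the 18.2% and 14.2% of all genes. Those that rose were Ppp1r15b (0.61 ± 0.07, limma adjusted p = 7.26e-06) and Ppp1r15a (0.51 ± 0.09), whose products direct dephosphorylation of eIF2α. Eif2ak3, the gene of the endoplasmic reticulum kinase PERK, averaged 18.1 in KO + H-151, 12.5 in KO and 19.5 in control, and fell by 0.60 ± 0.13 in KO. Without KO replicate 2 the count of lower genes was 1, as the calls of Dnajc3 and Ddit3 were lost. Atf4, the transcription factor made more when eIF2α is phosphorylated, was at 389 in KO + H-151, 493 in KO and 462 in control (adjusted p = 0.293 for KO against control). With H-151, 4 fell relative to KO and 2 rose, beside 21.4% and 19.4% of all genes. The call of Eif2ak4, which rose, was lost without KO replicate 1. That of Eif2b3, which fell, was lost without KO replicate 1 or KO + H-151 replicate 1.

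Of 18 tested genes listed under editing, binding and decay of double-stranded RNA, 6 rose and 1 fell in KO, beside 18.2% and 14.2% of all genes. The list is broader than its heading. Among the 6 that rose, the products of Samhd1, Rnaseh2b and Xrn1 act on other substrates. Samhd1, a dNTP hydrolase, averaged 80.5 ± 6.11 scaled CPM in KO + H-151, 668 ± 13.97 in KO and 97.9 ± 3.99 in control (log2 change 2.76 ± 0.07 in KO against control, limma adjusted p = 1.96e-14). Zbp1, which like the long form of ADAR1 binds left-handed RNA, rose by 2.94 ± 0.17, and Pnpt1, an exonuclease of mitochondrial RNA, by 2.15 ± 0.15. Zfr was called lower (-0.19 ± 0.07, adjusted p = 0.0365), a call lost without any 1 of the KO or control libraries (adjusted p between 0.0773 and 0.271). Compared with KO, 6 fell in KO + H-151 and 0 rose, beside 21.4% and 19.4% of all genes. The call of Ttc37, which fell, was lost without KO replicate 1 or KO + H-151 replicate 1.

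Of 8 tested genes for endosomal receptors and their transport, Rnaset2b entered the test through KO alone and could come out higher only. Of the other 7, 2 rose and 1 fell in KO, beside 18.2% and 14.2% of all genes. Myd88, the adaptor of Toll-like receptors other than TLR3, averaged 44.9 in KO + H-151, 216 in KO and 44.0 in control, and rose by 2.27 ± 0.08 in KO (limma adjusted p = 4.51e-13). Unc93b1, which carries TLR3 and other receptors to endosomes, rose by 0.70 ± 0.11. Rnaset2b, a lysosomal RNase, had 80 reads in KO against 1 in control, a ratio of 96.2 with a 95% counting interval of 16.8 to 3845. Rnaset2a, of the same list, was not in the expression matrix, and whether reads were lost between these genes was not tested. Hsp90b1, a chaperone of Toll-like receptors and of secreted proteins at large, fell by 0.82 ± 0.08. Compared with KO, Myd88, Unc93b1 and Rnaset2b fell in KO + H-151, of which Rnaset2b could come out lower only. Irak4 and Tlr7 rose. Over all genes, 21.4% were called lower and 19.4% higher. The call of Irak4 was lost without KO replicate 1, and that of Unc93b1, which fell, without KO replicate 2. Tlr7, a receptor of single-stranded RNA known from macrophages and other immune cells, averaged 5.87 ± 1.22 in KO + H-151, 2.80 ± 0.470 in KO and 3.40 ± 0.282 in control, and the macrophage markers given above were higher in the same libraries.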

How the data were processed

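QuantSeq 3′ mRNA libraries of mouse dermal fibroblasts were used, 6 in all and 2 per group, with groups taken from the labels. Per the submitters' processing notes the authors used STAR 2.5.3a, featureCounts and edgeR with mm10; the annotation, the strand setting and any filter are not given in the sources used here. The deposited signal is CPM scaled by the authors, and its steps gave whole reads for every value within 0.0006, so that reads could be recovered. Changes were tested with limma 3.58.1 (trend, R 4.3.3) on log2(scaled CPM + 1) over all 6 libraries, for the 13648 of 13706 genes that reached 1 scaled CPM in 2 or more libraries, with Benjamini-Hochberg adjustment; 3 residual degrees of freedom became 15.7 after moderation. A fold change on this scale understates that of low genes.

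Members, lists and motifs were chosen with earlier results of these data known. Named are the 7 members, in each list the 3 genes with the smallest p in KO against control and the 1 with the highest mean, for each member the 3 nearest genes with a mean of at least 5, and Yap1, Wwtr1, Sting1, Cgas and Ifnb1; other genes are named to spell out small counts. Coordinates come from GENCODE M21, promoters from RefSeq (GRCm38.p6). A planned comparison of receptor proteins was not made, and some genes that the lists or the rule would name are not reported here. The steps were tested on simulated data. Replicates of each group differed by more than sampling noise (chi-square per gene 3.51 to 8.56). Alternatives were pseudocounts of 0.25 and 4, other filters and scalings, only the 2 groups compared, no trend, replicate blocks, edgeR 4.0.16, DESeq2 1.42.0, and leaving out each library.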

Additional observations from a re-analysis of the deposited data

How the results depend on the processing

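For the 6 genes other than Mavs, all 18 changes kept their direction and their side of the threshold under all 19 alternatives run; the log2 change of Ifih1 in KO against control ranged from 5.25 to 5.59 and that of Dhx58 from 2.58 to 3.27. Mavs changed. Its call in KO + H-151 against KO, the 1 member called higher there, became 0 members without the trend (adjusted p = 0.104) and in DESeq2 (0.101), and the count ranged from 0 to 1 when libraries were left out in turn. In KO + H-151 against control the count of higher members was 1, against 0, with total-count scaling (adjusted p = 0.0463), in edgeR (0.0417) and with a crossed replicate block (0.0123), and ranged from 0 to 1 when libraries were left out.

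Small changes in KO against control took the other sign under some settings. After median, quantile and total-count scaling, in this order, the log2 change was -0.056, -0.0821 and -0.1576 for Mavs, -0.0379, -0.2291 and -0.1425 for Ywhae, -0.0513, -0.1462 and -0.1558 for Pcbp2, and -0.0534, -0.0681 and -0.154 for Idua; for Atf4 it was -0.0995 and -0.0716 with the quantile and total-count scalings. With libraries left out in turn it ranged from -0.0467 to 0.0502 for Mavs, from -0.0416 to 0.0578 for Pcbp2, from -0.0603 to 0.0681 for Idua and from -0.15 to 0.0337 for Slc18b1. The cause was not tested, beyond the shift in the median of all genes that these scalings bring.

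The labels do not say whether a replicate number marks a shared culture or day. Same-numbered libraries had deviations correlated at -0.0676 (KO and control), -0.128 (KO + H-151 and KO) and 0.154 (KO + H-151 and control). With 2 libraries per group, these values cannot decide whether the numbers pair the libraries. With a replicate block the counts of members stayed at 6 higher and 0 lower in KO against control, and the genes called were 2430 higher and 1887 lower; among the named genes the block moved Zfr past the threshold (adjusted p = 0.0508). The crossed block, added after seeing the correlations, gave 2891 higher and 2431 lower. The genes called lower in KO numbered 1938, but 1266 among genes with a mean of at least 10 scaled CPM, 1217 in DESeq2, 2989 after quantile and 4054 after total-count scaling, and 1165 to 2186 when libraries were left out. In KO + H-151 against KO, total-count scaling called 4770 higher and 1930 lower, against 2643 and 2923. Without the trend, 1071 and 937 were called in KO + H-151 against control, against 1570 and 1562. Among the 7 genes, the KO + H-151 level of Dhx58 rests on 22 and 46 reads.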

Other observations

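In KO + H-151 against control, 17 of the 97 genes in the pathway lists were called lower and 5 higher, beside 11.4% and 11.5% of all genes. Those called higher were Oas1c, Eif2ak4, Rnaseh2b, Irak4 and Tlr7, with Oas1c at 0.56 ± 0.19 (limma adjusted p = 0.0473). Each of these 5 calls was lost in some of the fits with a library left out, and that of Oas1c in all of them. The log2 change of Oas1c in those fits ranged from 0.442 to 0.674. Some of the lower calls were lost too, such as those of Mex3c, Itch and Pcbp1. Among the lower ones, the log2 change was -1.95 ± 0.17 for Oasl2 (limma adjusted p = 4.70e-07), -1.29 ± 0.12 for Irf7 (adjusted p = 9.06e-07), -0.96 ± 0.17 for Zbp1 (adjusted p = 0.000497) and -0.71 ± 0.14 for Ddx60 (adjusted p = 0.00157), each with 2 libraries per group. Myd88 (0.03 ± 0.08, adjusted p = 0.840), Marchf5 (-0.0082 ± 0.07, adjusted p = 0.954) and Tnfaip3 (-0.22 ± 0.18, adjusted p = 0.432), which rose in KO too, did not pass in this comparison.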
